A study of Mus musculus with 6 samples.

Results

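The 10 genes Cd68, Adgre1, Csf1r, Lyz2, C1qa, C1qb, C1qc, Mrc1, Tyrobp and Ctss, which are widely used to recognise macrophages, were followed in the thyroid of mice with and without pendrin. They were picked by name, 10 of the 18193 genes that the array's annotation names alone on a probe set, and 14 probe sets of the 45101 on the array are assigned to 1 of them alone. Thyroid was microdissected from mice at postnatal day 15, and total RNA was hybridised to Affymetrix mouse expression arrays. Heterozygotes for Slc26a4, the gene of the anion exchanger pendrin, gave 3 arrays (samples 1, 3 and 5) and served as controls, and Slc26a4 knockouts gave the other 3 (samples 2, 4 and 6). Both genotypes therefore carry a disrupted allele, and wild-type glands were not analysed here. The strain, sex, number of animals behind each RNA and the disrupted part of the gene are not stated in the labels, so p-values measure only the spread between these samples, which may be technical.

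Macrophages live in most organs, where they clear dying cells, take up proteins and debris, and sense damage. Most depend on signalling through the receptor Csf1r, and in the thyroid they lie in the connective tissue between the follicles and can enter the follicle lumen. Several of their products act outside the cell, among them the C1q chains that start the classical complement pathway. In RNA from whole dissected tissue, fewer macrophages and less RNA per macrophage cannot be told apart.

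Promoters are shown first for 4 of the genes, because PU.1 (Spi1), the transcription factor that directs macrophage development, binds a core with the letters GAGGAA. RefSeq windows of 300 bases on GRCm38.p6, from 250 bases before each start, were at hand for 6 of the 10 genes. Capitals mark GAGGAA, or TTCCTC where the match lies on the opposite strand. C1qb (chr4:136886151-136886450, minus strand) and C1qc (chr4:136892865-136893164, minus strand) encode chains of the same protein from neighbouring genes, Mrc1 (chr2:14229164-14229463, plus strand) holds the most matches, and Ctss (chr3:95526536-95526835, plus strand) is the gene whose arrays separated by genotype.
C1qb: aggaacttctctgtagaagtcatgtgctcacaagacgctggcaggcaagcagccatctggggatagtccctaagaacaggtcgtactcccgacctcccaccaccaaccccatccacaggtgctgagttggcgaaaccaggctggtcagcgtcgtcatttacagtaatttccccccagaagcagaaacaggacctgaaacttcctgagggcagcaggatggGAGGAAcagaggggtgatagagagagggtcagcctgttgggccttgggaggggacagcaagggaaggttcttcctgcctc
C1qc: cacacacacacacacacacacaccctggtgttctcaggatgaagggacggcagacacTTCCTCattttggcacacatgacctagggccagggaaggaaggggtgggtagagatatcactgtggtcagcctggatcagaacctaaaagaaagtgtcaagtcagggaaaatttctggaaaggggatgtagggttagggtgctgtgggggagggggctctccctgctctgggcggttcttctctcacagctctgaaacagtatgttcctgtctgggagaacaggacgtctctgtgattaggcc
Mrc1: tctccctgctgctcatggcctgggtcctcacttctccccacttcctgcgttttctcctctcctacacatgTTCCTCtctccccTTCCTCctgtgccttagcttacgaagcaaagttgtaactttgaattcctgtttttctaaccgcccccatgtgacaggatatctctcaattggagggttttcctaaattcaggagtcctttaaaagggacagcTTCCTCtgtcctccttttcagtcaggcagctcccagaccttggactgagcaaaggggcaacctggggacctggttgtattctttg
Ctss: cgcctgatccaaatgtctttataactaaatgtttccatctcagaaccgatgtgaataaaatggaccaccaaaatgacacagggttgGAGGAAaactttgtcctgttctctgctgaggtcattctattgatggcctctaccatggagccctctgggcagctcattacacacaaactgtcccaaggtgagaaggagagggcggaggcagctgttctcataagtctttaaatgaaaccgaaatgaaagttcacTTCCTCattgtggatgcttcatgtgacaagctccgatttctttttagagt

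The letters GAGGAA occurred on either strand in 5 of the 6 windows, and in 28.3% of the 32851 promoter windows of the whole table. Mrc1 held 3 matches, all on the opposite strand and beginning 35, 167 and 180 bases before the start. Ctss had 2, at 164 bases before the start and at the start itself, and Cd68 also had 2. C1qb had 1 match 30 bases before the start and C1qc 1 match 193 bases before it. No match was found in the Lyz2 window. The letters TTGCNNAA, which C/EBP factors bind, were found in the Cd68 window of the 6 and in 10.8% of all windows. CANNTG, the E-box, which reads alike on both strands, occurred in 6 of 6 and in 72.3%, and TATAAA in 1 of 6, that of Ctss, and in 13.6%. These matches describe the letters of the windows and are no measure of binding.

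The arrays carry transcripts of thyroid and of adjoining tissue. Thyroglobulin and 6 further thyrocyte genes were above background on all 6 arrays, where background was the brightest signal of 27 control probe sets for bacterial transcripts, 22.9. Signals are linear array intensities that had been scaled to the same trimmed mean on every array, 500.0. Slc26a4 itself read 5.0, 4.59 and 12.1 on the heterozygous arrays 1, 3 and 5 and 7.29, 2.10 and 15.7 on the knockout arrays 2, 4 and 6 (probe set 1419725_at). All 6 values lay under background, so the genotypes could not be checked on it. The summed signal of 9 T cell and thymocyte markers was 4076 on knockout 4 and between 138.8 and 216.9 on the other 5 arrays, and that of 3 parathyroid markers ranged from 990.1 on heterozygous 1 to 16851 on a knockout array.

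None of the 10 genes passed a test between knockout and heterozygous thyroid, and each was detected in both. All 14 probe sets were above background on all 6 arrays, a limit that 67.5% to 73.8% of all probe sets passed, depending on the array. All 14 entered the fit, as did 27022 of 45037 probe sets in all. For each of the 14, the highest array exceeded the lowest by between 1.21-fold and 1.92-fold. In limma, 0 of the 14 passed an adjusted p of 0.05, with a background of 0% of 27022 probe sets tested in either direction. An unadjusted limma p under 0.05 was found for 0 of 14 and for 0.511% of all tested (0.244% higher and 0.266% lower in knockout). A test that gave each probe set its own variance had 0 of the 14 and 283 of all 27022 under an unadjusted 0.05. At such low shares, 0 of 14 does not set these genes apart. Ctss had the smallest p of the 14 (limma, unadjusted p = 0.0532). Taking the brightest probe set of each gene, 7 genes had the higher mean in knockout and 3 in heterozygous thyroid, with a median log2 difference of 0.06. Over all probe sets tested, 49.3% had the higher mean in knockout, and the median was -0.0021.

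The balance of 7 to 3 turned with single arrays. Without heterozygous 1 the count was 5 of 10 higher with a median of -0.0041, without knockout 6 it was 4 with -0.0068, and without knockout 4 it was 5 with 0.0061. Without knockout 2, and likewise without heterozygous 5, all 10 had the higher mean in knockout, with medians of 0.16 and 0.12. The lowest limit of a 95% interval was 0.745-fold, for Tyrobp, and the highest was 1.58-fold, for C1qa. For each gene, differences up to the limits of its own interval remain possible, which for C1qb (1437726_x_at) were 0.900-fold and 1.19-fold.

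**Figure D1:**
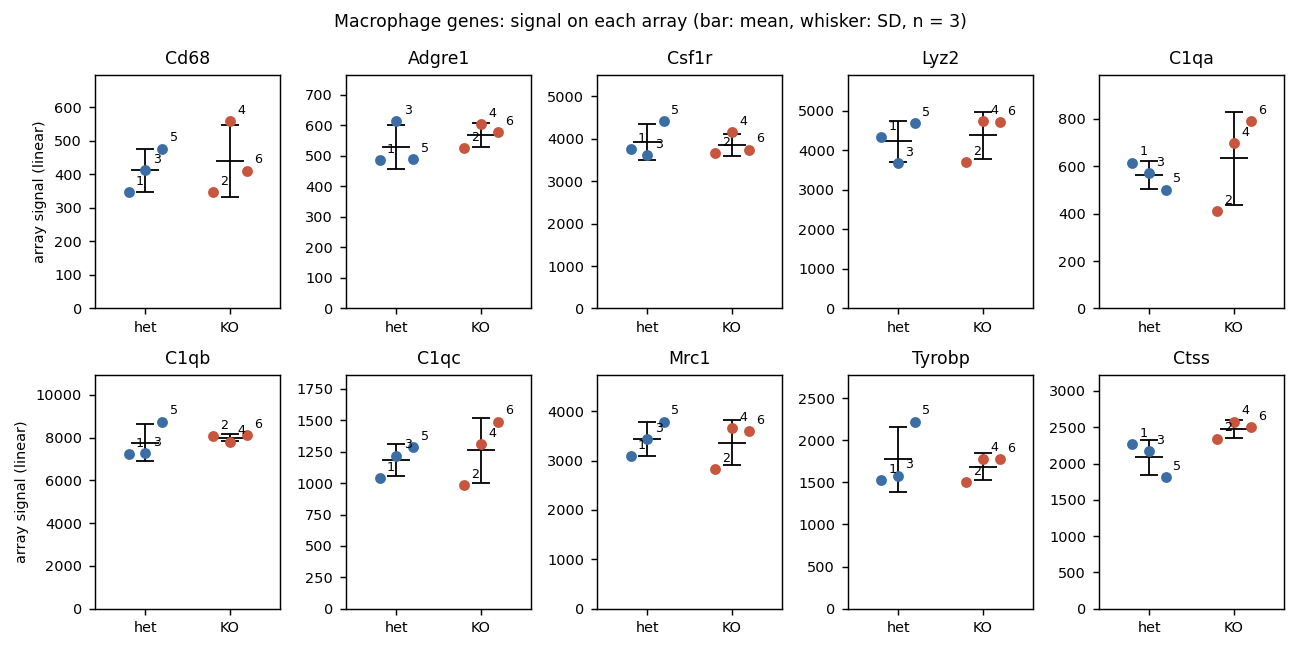
Linear array signal (vertical axis, from 0) of the 10 macrophage genes, brightest probe set of each, on the 3 heterozygous (het, blue) and 3 knockout (KO, red) arrays, with sample numbers beside the points, a bar for the mean and whiskers for the SD (n = 3). The 3 knockout points lie wholly above the heterozygous ones for Ctss, between 2343 and 2578 against 1813 to 2273, and the genotypes overlap for the other 9 genes.

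Among surface receptors, Csf1r, through which the growth factors Csf1 and Il34 keep macrophages alive, was represented by 3 probe sets. The brightest, 1419872_at, read 3747, 3617 and 4411 on heterozygous 1, 3 and 5 and 3664, 4150.1 and 3744 on knockout 2, 4 and 6. Heterozygous 5 was the highest and heterozygous 3 the lowest, so the knockout arrays lay inside the heterozygous range. The means were 3925 ± 426 and 3853 ± 261 (SD, n = 3), a log2 difference of -0.02 ± 0.10 (SE) with a 95% interval of -0.26 to 0.21 (limma, adjusted p = 1.0). The other probe sets, 1419873_s_at and 1423593_a_at, gave log2 differences of 0.03 and 0.03. Of these, 1419873_s_at was also highest on heterozygous 5, at 2166, whereas 1423593_a_at was highest on heterozygous 3, at 612.1.

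Adgre1 encodes F4/80, the adhesion receptor by which mouse macrophages are usually stained. It read 486.8, 613.3 and 489.0 on heterozygous 1, 3 and 5 and 526.4, 603.9 and 578.8 on knockout 2, 4 and 6. The knockout arrays lay between the heterozygous ones, of which heterozygous 3 was the highest of all 6. The log2 difference was 0.11 ± 0.14 (SE), with an interval of -0.22 to 0.44 (limma, adjusted p = 1.0).

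Mrc1, the mannose receptor CD206 of resident and alternatively activated macrophages, read 3086, 3441 and 3787 in heterozygotes and 2831, 3653 and 3589.6 in knockouts, in the order of the sample numbers. Knockout 2 was the lowest array and heterozygous 5 the highest, and the genotypes overlapped. Its log2 difference was -0.04 ± 0.13 (SE), with an interval of -0.33 to 0.25 (limma, adjusted p = 1.0).

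Tyrobp is the adaptor DAP12, which passes signals from receptors such as Trem2 to the kinase Syk. Its signals were 1524, 1581 and 2220.5 on the heterozygous arrays and 1499, 1782 and 1778 on the knockout arrays. Heterozygous 5 stood above the other 5 arrays, all of which read between 1499 and 1782. The means were 1775 ± 387 and 1686 ± 162 (SD, n = 3), a log2 difference of -0.06 ± 0.16 (SE) and an interval of -0.42 to 0.31 (limma, adjusted p = 1.0).

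C1qa, C1qb and C1qc encode the 3 chains of C1q, which tissue macrophages secrete and which binds immune complexes and dying cells. C1qa read 614.8, 571.7 and 501.2 on heterozygous 1, 3 and 5 and 411.5, 696.6 and 789.2 on knockout 2, 4 and 6. The knockout arrays included both the lowest and the highest value, so C1qa had the widest range of the 14 probe sets, 1.92-fold, and a difference of 0.12 ± 0.24 (SE, log2). C1qc read 1042, 1219 and 1286 in heterozygotes and 983.5, 1309 and 1490.2 in knockouts, again with knockout 2 lowest and knockout 6 highest. Its log2 difference was 0.08 ± 0.17 (SE), and the genotypes overlapped for both chains (limma, adjusted p = 1.0 for each).

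C1qb varied less and in another order over the arrays. Its brightest probe set, 1437726_x_at, read 7227, 7279 and 8750.2 in heterozygotes and 8055, 7818 and 8108 in knockouts, with the highest value on heterozygous 5. The highest array was 1.21-fold above the lowest, the smallest such range of the 14. Log2 differences were 0.05 ± 0.09 (SE) for this probe set, 0.06 for 1434366_x_at and 0.19 ± 0.13 (SE) for the dimmer 1417063_at. The dimmest of them read 878.0, 937.5 and 1107 in heterozygotes and 1042, 1088 and 1212 in knockouts, with the genotypes overlapping at heterozygous 5. All 3 gave an adjusted p of 1.0 in limma.

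Ctss, Cd68 and Lyz2 serve the digestive compartments of the cell. Ctss, or cathepsin S, is a lysosomal protease that trims the invariant chain of MHC class II molecules. Its signals were 2273, 2177 and 1813 on heterozygous 1, 3 and 5 and 2343, 2578 and 2505 on knockout 2, 4 and 6. Every knockout array was above every heterozygous array, the closest being knockout 2 and heterozygous 1. The log2 difference was 0.25 ± 0.11 (SE), a 1.19-fold higher level with an interval of 0.997-fold to 1.42-fold, and limma did not call it (unadjusted p = 0.0532, adjusted p = 1.0).

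Ctss was the 1 probe set of 14 whose genotypes did not overlap with knockout higher, and 0 of 14 separated the other way. Among all probe sets tested, 1.64% separated with knockout higher and 2.04% with knockout lower, 3.68% in all. Over the settings tried, the Ctss log2 difference ranged from 0.15 without heterozygous 5, the lowest array, to 0.31 without heterozygous 1. Because the genotypes did not overlap, leaving arrays out could not change the sign for Ctss. Its unadjusted p in limma was 0.0404 without heterozygous 1, 0.0495 with quantile normalization and 0.23 with the arrays centred on their medians. C1qa also had an unadjusted limma p under 0.05, 0.0343, without knockout 2. In that setting 934 of 27022 probe sets lay under 0.05.

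Cd68, a glycoprotein of late endosomes and lysosomes, read 347.5, 412.9 and 476.1 in heterozygotes and 347.2, 557.5 and 410.8 in knockouts. Knockout 4 was the highest array and knockout 2 the lowest, and the log2 difference was 0.07 ± 0.20 (SE; limma, adjusted p = 1.0). Lyz2, the lysozyme of macrophages and other myeloid cells, read 4328, 3675 and 4691 in heterozygotes and 3695, 4733 and 4713 in knockouts. Heterozygous 3 and knockout 2 were both low, and the other 4 arrays lay between 4328 and 4733. Its log2 difference was 0.05 ± 0.13 (SE), with an interval of -0.25 to 0.35 (limma, adjusted p = 1.0). Lyz1, a closely similar lysozyme gene, had bright probe sets with log2 differences of 0.03 (1436996_x_at) and 0.09 (1439426_x_at), and such probes may read both genes. A dim probe set of Lyz1, 1450822_at, gave -0.20 ± 0.29 (SE).

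**Figure D2:**
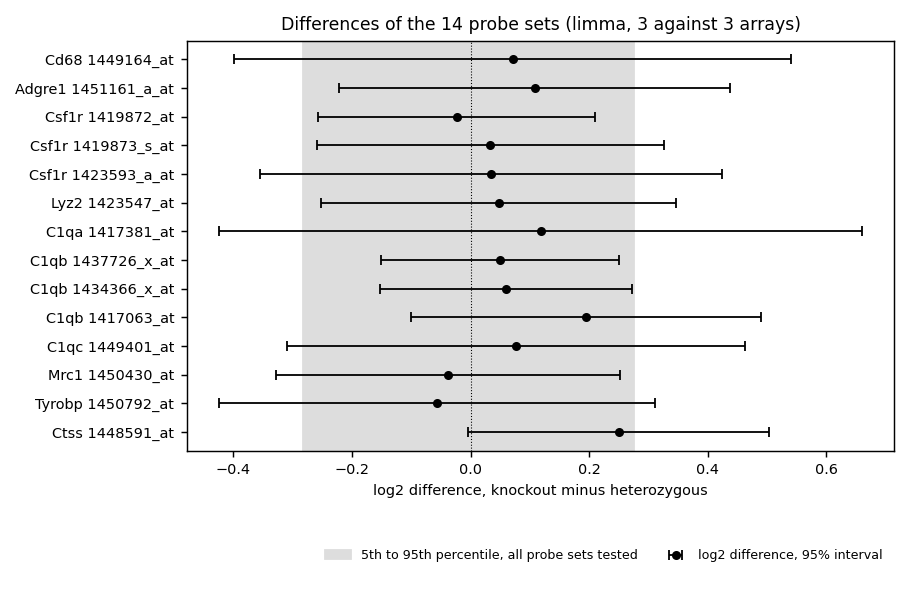
Log2 difference between knockout and heterozygous arrays (horizontal axis) for each of the 14 probe sets (rows), with its 95% interval from limma, over a grey band from the 5th to the 95th percentile of all 27022 probe sets tested (-0.28 to 0.28). All 14 points lie inside the band, Ctss farthest to the right at 0.25, and all 14 intervals include 0.

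Single arrays of both genotypes stood high or low for several of the genes at once. Relative to each gene's mean over the 6 arrays, the mean log2 deviation of the 10 genes was -0.18 on knockout 2 and -0.10 on heterozygous 1, and 0.15 on knockout 4 and 0.12 on knockout 6. On heterozygous 3 it was -0.05 and on heterozygous 5 it was 0.06. Knockout 2 was the lowest array for 5 of the 10 genes and the highest for 0. Heterozygous 5 was the highest for 4, Csf1r, C1qb, Mrc1 and Tyrobp, and the lowest for Ctss. Knockout 4 lay above the gene's own mean for 9 of 10, with C1qb at -0.01 as the exception.

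Measures of RNA and of other cells also differed between these arrays. The ratio of 3' to 5' signal of the beta-actin control probe sets was 3.13 on knockout 2 and 3.21 on heterozygous 5, against 2.70 to 2.89 on the other 4 arrays. The 5' probe set of 18S ribosomal RNA read 400.5 on knockout 2 and 2504 on heterozygous 5, the lowest and highest of the 6. Knockout 4, on which 9 of the 10 genes were above their mean, is the array with the thymocyte markers at 4076, including Cd3g at 578.1 against 16.3 to 28.6 elsewhere. Fat markers (Adipoq, Fabp4, Ucp1, Cidea and Lep) had mean log2 deviations of -0.25 on knockout 2 and -0.24 on heterozygous 3 and of 0.14, 0.17 and 0.17 on knockout 4, heterozygous 5 and knockout 6. On heterozygous 1, where the macrophage genes were low, fat markers stood at 0.01. Thyrocyte markers (Tg, Pax8, Slc5a5, Tshr and 3 more) ran the other way on several arrays, at 0.20 on heterozygous 1 and 0.14 on knockout 2, against -0.10 on knockout 4, -0.15 on heterozygous 5 and -0.05 on knockout 6. Muscle markers (Ckm, Acta1, Myh4, Myh1 and 2 more) stood at 0.69 and 0.77 on heterozygous 1 and knockout 2 and at -1.46 on knockout 6. The part of all these measures in the levels of the macrophage genes was not tested.

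Between genotypes, 0 genes of these tissue lists passed in limma. Fat had 3 of 5 genes higher in knockout (median log2 difference 0.03), thyrocytes 2 of 7 (-0.04) and muscle 1 of 6 (-0.58). Fibroblast markers (Col1a1, Col1a2, Pdgfra, Dcn and 2 more) had 5 of 6 higher (0.06) and endothelial markers (Pecam1, Cdh5, Kdr, Tie1 and 2 more) 3 of 6 (0.02). Parathyroid markers (Pth, Casr and Chga) had 1 of 3 higher (-0.10), and cartilage markers (Col2a1, Acan, Matn1, Comp and 1 more) had 1 of the 2 tested higher (0.02).

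**Figure D3:**
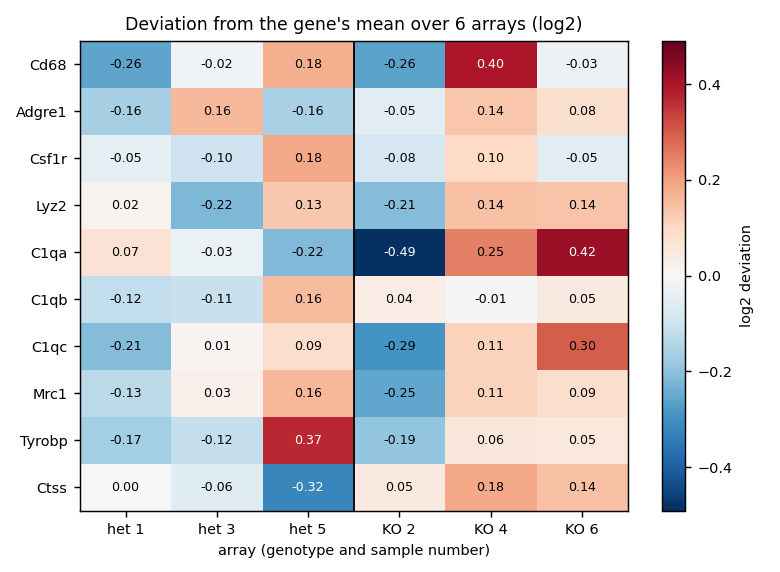
Deviation of each of the 10 macrophage genes from its own mean over the 6 arrays (log2, colour and printed value), with genes as rows and arrays as columns, heterozygous left of the black line and knockout right of it. Knockout 2 is below the mean for 8 of 10 genes and knockout 4 above it for 9, while Ctss, C1qa and Adgre1 are low on heterozygous 5, where the other 7 genes are above their mean.

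Genes beyond the 10 whose array profile came closest to their mean profile were Ints7, Fech, Cryzl1, Emc6, Fstl1, Higd1a, Sephs2 and Carhsp1. The measure was the root mean square distance over the 6 arrays between centred log2 profiles, which was 0.019 for Ints7, a subunit of the Integrator complex, and 0.032 for Carhsp1, an RNA-binding protein. For the 10 genes themselves the distance to their own mean profile ran from 0.066 for Mrc1 to 0.23 for C1qa, and the median of all tested probe sets with a single symbol was 0.21. A gene with equal values on all arrays would lie at 0.117. C1qa, Ctss, Cd68, Tyrobp, Adgre1 and C1qb lay farther than that, and Csf1r, Lyz2, C1qc and Mrc1 lay closer. The 10 genes thus did not all share the mean profile. These distances over 6 arrays are a description, with no test.

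Other genes of resident macrophages also gave no call. Of 18 such genes, 16 were tested and 0 passed in either direction in limma, with 12 higher and 4 lower in knockout and a median log2 difference of 0.07. Cd163, the scavenger receptor for haemoglobin, read 2485 ± 266 in heterozygous and 2656 ± 426 in knockout thyroid (SD, n = 3). Mpeg1, the pore-forming protein perforin-2, read 637.0 ± 78.0 and 696.3 ± 111.9. Aif1, the actin-binding protein Iba1, and Ms4a7 gave log2 differences of -0.03 and 0.06. The summed signal of the 18 was lowest on heterozygous 1, at 15094, and ranged up to 19390.3 in heterozygotes and from 16155 to 19465 in knockouts, so the genotypes overlapped.

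Growth factors and transcription factors of macrophages had 12 tested genes, of which 0 passed, 10 were higher and 2 lower, with a median of 0.12. Csf1, a ligand of Csf1r, read 283.5, 348.0 and 327.9 on heterozygous 1, 3 and 5 and 381.7, 372.0 and 362.1 on knockout 2, 4 and 6 by its brightest probe set, 1460220_a_at. The knockout arrays lay above all heterozygous arrays, and the log2 difference of 0.21 ± 0.14 (SE) did not pass (limma, adjusted p = 1.0). Csf1 was the 1 of the 12 tested genes that separated, and 1.64% of all probe sets tested separated with knockout higher. Further tested probe sets of Csf1, 1425155_x_at and 1448914_a_at, gave log2 differences of -0.065 and -0.0030 with overlapping genotypes. Il34, the other ligand, read 137.7 ± 58.4 and 120.8 ± 18.1. Spi1, which encodes PU.1, was dim, at 51.6 ± 11.7 and 67.1 ± 21.3, and the receptor chain Csf2ra gave a difference of 0.13.

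Receptors and kinases around Tyrobp had 12 tested genes of 14, with 0 passing, 7 higher, 5 lower and a median of 0.02. Fcer1g, the adaptor of Fc receptors, read 1161 ± 334 and 1065 ± 81.2 (SD, n = 3). The kinase Syk and the high-affinity Fc receptor Fcgr1 gave log2 differences of 0.06 and 0.03. Trem2, a lipid-sensing receptor that needs Tyrobp, was near background at 25.04 ± 6.61 and 22.6 ± 4.57 and was not tested.

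The partners of C1q had 8 tested genes, 0 of them passing, 5 higher and 3 lower, with a median of 0.08. C1s1 encodes C1s, the protease of the C1 complex that cleaves the next complement components. It read 1384, 1491 and 1400.5 in heterozygotes and 1662, 1905 and 2017 in knockouts. All knockout arrays were above all heterozygous arrays, a log2 difference of 0.38 ± 0.11 (SE) that limma did not call over all probe sets (unadjusted p = 0.00777, adjusted p = 1.0). C1s1 was the 1 of the 8 tested genes that separated. Among all probe sets tested, 1.64% separated with knockout higher and 0.244% were higher with an unadjusted limma p under 0.05. In the tissue lists, 1 of 6 fibroblast and 1 of 6 endothelial markers also separated with knockout higher. C1ra, whose product C1r activates C1s once C1q has bound, gave -0.06, the C1 inhibitor Serping1 gave 0.13 and C2 gave -0.10.

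Monocyte and activation genes gave no call. Of 13 with a probe set, 7 were bright enough to be tested, 0 passed, 5 were higher and 2 lower, with a median of 0.03. On all 6 arrays, 8 of the 13 were above background. Nos2 and Il6, products of inflammatory macrophages, were the 2 under background on all 6. Ccr2, the chemokine receptor of recruited monocytes, read 221.2 ± 51.3 and 275.2 ± 27.1 (SD, n = 3), with a log2 difference of 0.32 (limma, adjusted p = 1.0). Il1b and Arg1 were not tested, at 34.2 ± 12.96 and 33.5 ± 9.48 for Il1b and 27.1 ± 23.0 and 31.7 ± 9.37 for Arg1. Retnla, a secreted product of alternatively activated macrophages and of fat, was singled out after its values were seen. It read 3473, 1967 and 2126 in heterozygotes and 3347, 4192 and 3132 in knockouts (log2 difference 0.53; limma, unadjusted p = 0.0391, adjusted p = 1.0), with an overlap at heterozygous 1.

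The phagosome and lysosome genes, which thyrocytes and macrophages share, were balanced. Of 9 tested, 0 passed, 4 were higher and 5 lower, and the median was -0.0050. The cathepsins Ctsb, Ctsd, Ctsl and Ctsz, other proteases of the lysosome, gave log2 differences of 0.01, 0.03, -0.09 and 0.14, against 0.25 for Ctss, and the difference between them and Ctss was not tested.

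**Figure D4:**
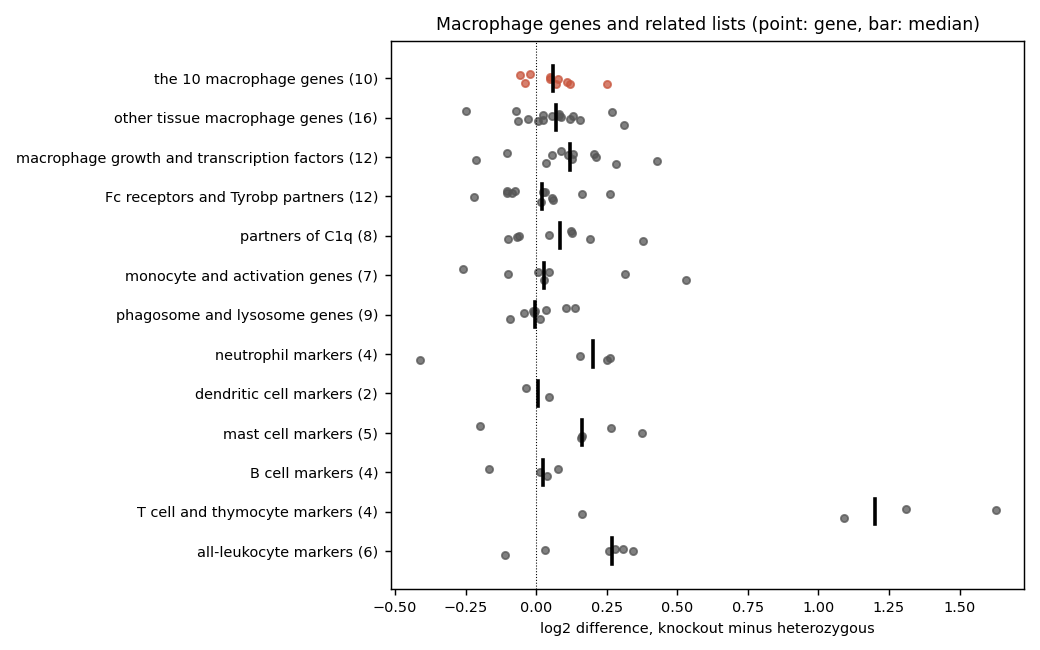
Log2 difference between knockout and heterozygous arrays (horizontal axis) of every tested gene in the 10 macrophage genes (red) and in 12 lists of related or other leukocyte genes (grey), 1 row per list with its number of tested genes and a black bar at its median. The 10 genes lie between -0.06 and 0.25, and the T cell and thymocyte row, whose signal is on knockout 4, has the highest median, 1.20.

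Markers of other leukocytes were measured on the same arrays. The 6 general leukocyte markers, Ptprc, Coro1a, Cd52 and Cd53 among them, had 5 higher, 1 lower and 0 passing in limma, with a median of 0.27 and a summed signal of 9402 to 10073 in heterozygotes and 9211 to 11306 in knockouts, highest on knockout 4. Of 9 neutrophil markers, which include S100a8, S100a9, Camp and Ngp, 4 were tested, 3 higher and 1 lower with a median of 0.20. The sum of the 9 was 725.3 to 3019 in heterozygotes and 1351 to 1807 in knockouts, with the highest on heterozygous 5, and Cxcr2 and Csf3r were under background on all arrays. Mast cell markers (Cpa3, Mcpt4, Cma1, Tpsb2 and 3 more) had 4 of 5 tested genes higher, a median of 0.16 and sums of 1896 to 2799 and 2212 to 3315, again highest on knockout 4.

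Dendritic cell markers (Flt3, Zbtb46, Itgax, Cd209a and 3 more) had 2 tested genes, 1 higher and 1 lower with a median of 0.0048. They summed to 2629 to 3022 in heterozygotes and 2711 to 3049 in knockouts, most of it from Zbtb46 at 2096 ± 171 and 2162 ± 160, while Zbtb46 is also made by endothelium and Cd209a was under background on all arrays. Of 5 B cell markers (Cd79a, Cd79b, Ms4a1 and Vpreb1 among them), 4 were tested, 3 higher and 1 lower with a median of 0.02, and the sum was 524.1 to 723.8 and 475.1 to 697.1. The T cell and thymocyte markers (Cd3e, Cd3d, Cd3g and Cd8a among them) had 4 tested genes, all higher in the knockout mean, and their sum reached from 138.8 to 4076 in knockouts, the upper end on knockout 4 alone. The sums of all these leukocyte lists overlapped between genotypes, and 0 of their members passed in limma.

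Leaving out knockout 4 together with heterozygous 1 left 2 arrays in each group. The median difference of the 10 genes was then -0.02, with 5 of 10 higher in knockout. Ctss kept a log2 difference of 0.28, while Cd68 stood at -0.22, Tyrobp at -0.20 and Mrc1 at -0.18, and 0 of all probe sets passed in limma.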

How the data were processed

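Total RNA of microdissected thyroid from 6 mouse samples, 3 per genotype, was extracted with a Qiagen kit and labelled by the Ovation method, per the labels' protocols. The authors deposited 1 linear intensity for each probe set on each array, made with GCOS per the submitters' processing notes, with no version or settings stated there. The mean of each array after trimming 2% at each end was 500.0, so the scaling was kept.

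Names come from the platform annotation. Of 45101 probe sets, 34958 had 1 symbol, 932 several and 9211 none. The 64 control probe sets were left out. Signals were used as log2(signal + 16.7), the 25th percentile of all values, which understates changes of dim genes. The 27022 of 45037 probe sets with a mean above the 40th percentile (a signal of 43.5) were tested in limma 3.58.1 (R 4.3.3) by lmFit and eBayes with a trend, adjusted by Benjamini-Hochberg at 0.05. On data simulated for this comparison over 27022 probe sets, the fit recovered 16% of those moved 1.5-fold, 36% of those moved 2-fold, 76% of those moved 4-fold and 98% of those moved 8-fold. The simulation moved 50 probe sets at each size together, and in such a set large moves ease the adjusted threshold for small ones. The simulated noise was independent between probe sets, whereas tissue markers moved together on single real arrays. The recovery rates may therefore not hold for the real arrays.

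A gene is represented by its brightest probe set. Every probe set of the 10 genes is described. In each list the first 4 genes in the written order with a probe set are named, together with the 8 genes nearest in array profile. Retnla, the remaining fat marker Lep and the genes under background on all arrays (Il6, Cxcr2, Csf3r) were named after their values were seen. The 10 genes and the lists were chosen with earlier results of these data known, so the lists are given by counts and medians, with summed signals for the leukocyte lists. Detection calls were not used here. Differences that moved most transcripts in one direction would have been removed by the scaling, and the number of arrays limits the precision. The alternatives were quantile normalization, median centring, other pseudocounts, filters and variance models, Welch's test, and arrays left out.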

Additional observations from a re-analysis of the deposited data

How the results depend on the processing

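The labels name no pairs of heterozygous and knockout samples, so no paired analysis was run. The sample numbers alternate between the genotypes, and whether neighbouring numbers mark pairs was not tested. Any variation shared within such pairs would count as spread between samples in the fit. Under the 16 alternatives to the fit, Welch's test included, 0 probe sets passed an adjusted p of 0.05. The median difference of the 10 genes lay between 0.049 and 0.074 wherever all arrays were kept, with 7 or 8 genes higher. With 1 array left out the median ranged from -0.0068 to 0.16 and the count of genes higher from 4 to 10. None of the 112 differences of single probe sets changed sign while all arrays were kept. The filters and variance models among these settings leave a difference unchanged, so only the normalizations and pseudocounts could have changed a sign. With 1 array left out, 21 of 84 differences changed sign, in 10 of the 14 probe sets. Their ranges were -0.063 to 0.39 for C1qa, -0.023 to 0.14 for C1qb 1434366_x_at, -0.052 to 0.24 for C1qc, -0.11 to 0.22 for Cd68 and -0.050 to 0.17 for Lyz2. For Csf1r they were -0.079 to 0.063 (1419872_at), -0.032 to 0.16 (1419873_s_at) and -0.092 to 0.15 (1423593_a_at), for Mrc1 -0.11 to 0.080 and for Tyrobp -0.16 to 0.11. Without heterozygous 1 and knockout 4 together, the log2 differences that changed sign were -0.22 for Cd68, -0.047 for C1qc, -0.041 for C1qb 1434366_x_at and, for Csf1r, -0.077 (1419873_s_at) and -0.14 (1423593_a_at). The cause was not tested. All 14 probe sets were above background on every array, a limit that 67.5% to 73.8% of all probe sets passed, depending on the array. The 3 arrays per genotype limit the precision.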
